A study of Rattus norvegicus with 10 samples.

Results

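Respiratory complex I, the NADH:ubiquinone oxidoreductase of the inner mitochondrial membrane, is the point at which electrons from NADH enter the respiratory chain, and it pumps protons as it passes them to ubiquinone. It is built from core subunits that carry out the chemistry, several of them encoded in mitochondrial DNA, from accessory subunits arranged around them, and with the help of assembly factors that leave the finished enzyme. In pancreatic beta cells the oxidation of glucose feeds this chain, and the ATP it yields closes the potassium channels that set off insulin release. The genes described here are the 42 nuclear genes whose array probesets carry a single gene symbol beginning with Nduf, of 14217 genes with a single symbol on the array. Of these, 36 have subunit names and 6 are assembly factors (Ndufaf). They are measured by 46 probesets, and for each gene the probeset with the highest mean signal over all arrays was taken.

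The study profiled pancreatic islets of male Wistar rats, 7 weeks old, after 10 days on either a cafeteria diet, in which fat supplied 66% of calories (5 rats), or standard chow, in which fat supplied 8% (5 rats). The samples are labelled as independent biological replicates. Islets were freed with collagenase, cleaned over a density gradient and hand-picked, so the RNA is that of whole islets with whatever other tissue stayed attached, and fewer cells of a type cannot be told apart from less RNA per cell. The labels name no transgene and no drug treatment. The diet of each sample is taken from its title, source name and description, 3 fields that name the same diet. The diet entry among the characteristics names the opposite diet in all 10 samples, and if that entry were the right field every sign given here would turn round.

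The values are linear signals of Affymetrix Rat Genome 230 2.0 arrays, scaled to a common trimmed mean near 500 in all 10 arrays. Array medians lay between 150.8 and 173.2, and Pearson correlations between arrays between 0.959 and 0.973. Islet hormone genes were bright (Ins1 averaged 21139 in cafeteria and 18693 in standard islets). Complex I genes were well measured: all 42 passed the filter on low signals, and 29 of them were among the brightest 20% of the 10300 genes tested. Differences are given as cafeteria minus standard on the scale log2(signal + 14.15), where 14.15 is a pseudocount, with the standard error (SE) and the p-value of limma, adjusted over 18625 tested probesets.

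No complex I transcript differed between the diets beyond the spread between rats in the adjusted test. By limma, 0 of 42 genes passed an adjusted p of 0.05, as was so for 0% of all tested probesets (0 of 18625, with 1941 at an unadjusted p under 0.05). The lowest adjusted p of a complex I gene was 0.444, that of Ndufs3. At an unadjusted p under 0.05, 1 of the 36 subunit genes was higher in cafeteria islets, against 5.02% of all tested genes, and 0 were lower, against 5.26%. In no complex I gene were the diet groups apart, which held for 1.06% of all tested genes with cafeteria higher and for 1.72% with cafeteria lower.

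The differences were small and mostly of the same sign. Of the 36 subunit genes, 28 were above 0 in cafeteria minus standard, against 48.7% of all tested genes, with a median log2 difference of 0.063 and a range from −0.07 to 0.24. The median over all tested genes was −0.004. Over the subunit genes the 95% intervals reached down to −0.46 and up to 0.52 on the log2 scale, and SEs ran from 0.076 to 0.206. When each array was centred on its own median, the split was 24 higher and 12 lower, and the median was 0.025.

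A single array carried much of that lean. In cafeteria replicate 5, 24 of the 36 subunit genes had their highest signal of all 10 arrays, against 19.6% of all tested genes. All 36 lay above the standard mean in it, by 0.02 to 0.71 on the log2 scale, and 29 lay above every standard array, against 26.2% of all tested genes. The median of the subunit genes relative to the standard mean was −0.06, 0.11, −0.04, 0.01 and 0.28 in cafeteria replicates 1 to 5, against −0.01, 0.07, −0.08, 0.04 and −0.01 in standard replicates 1 to 5. Thus cafeteria replicates 1 to 4 lay within or close to the standard range and replicate 5 lay outside it. Without cafeteria replicate 5, 21 subunit genes were higher and 15 lower, against 48.0% of all tested genes above 0, and the median was 0.014. No subunit gene then had an unadjusted p under 0.05 by limma, against 3.97% of all tested genes higher and 4.15% lower, and the lowest adjusted p was 0.574. Leaving out cafeteria replicate 1 or 2 instead gave medians of 0.10 and 0.039.

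**Figure D1:**
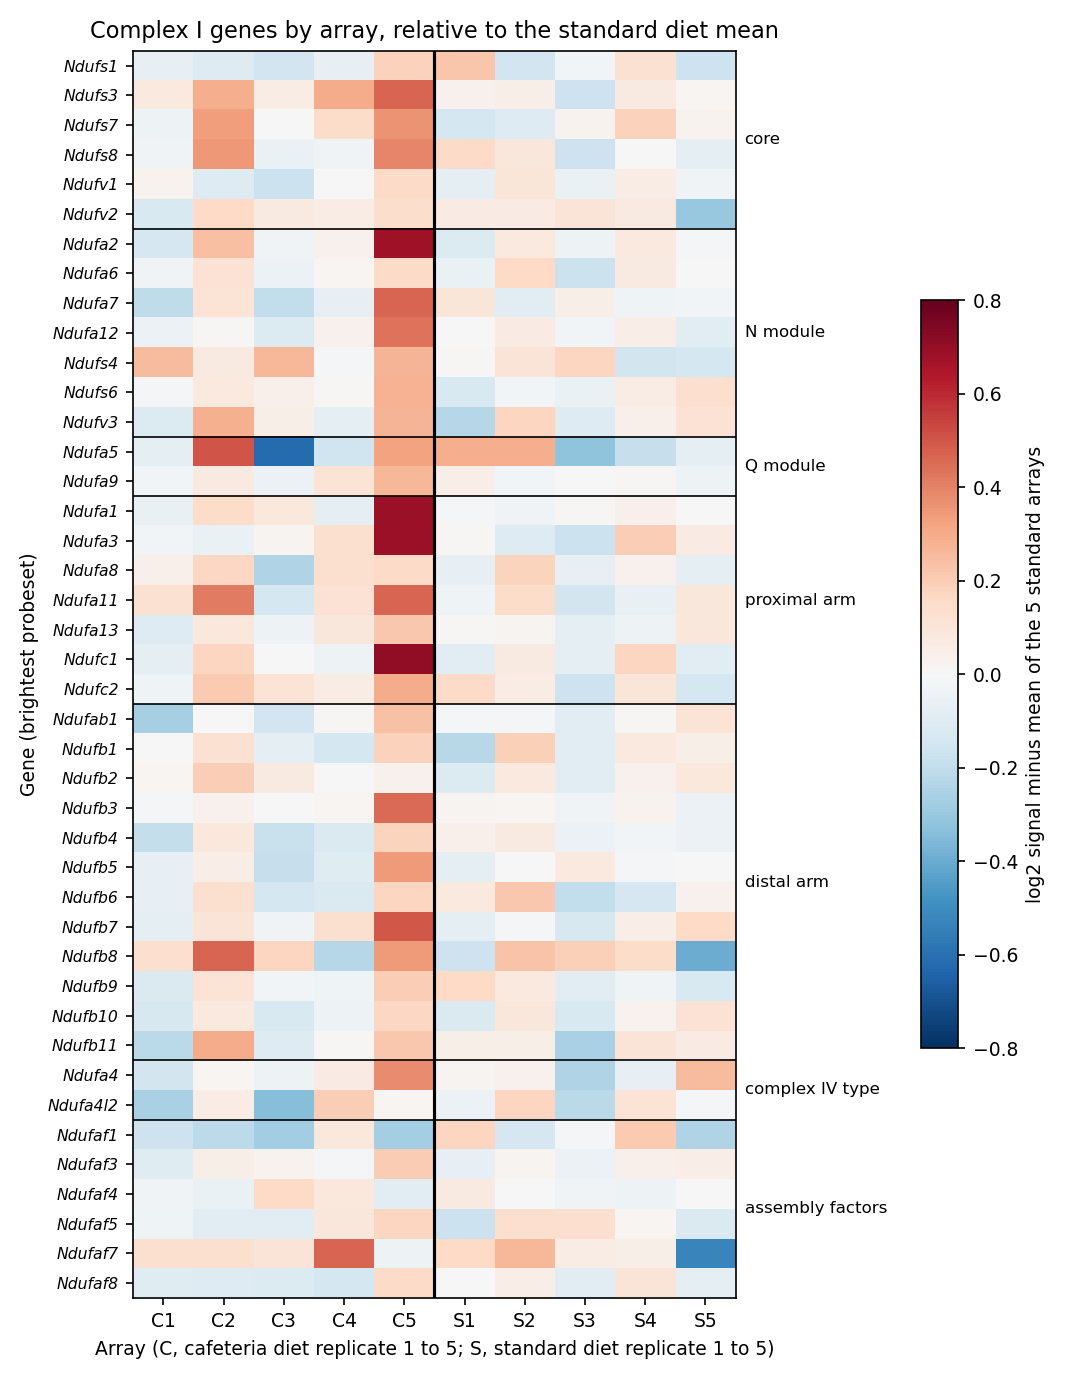
Log2 signal of each of the 42 complex I genes (rows, grouped by role) in each array (columns, C1 to C5 cafeteria, S1 to S5 standard), minus the mean of the 5 standard arrays. Red is above that mean and blue below it; column C5 is red in all 36 subunit rows, from 0.02 to 0.71, and the other columns are mixed.

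Several values moved with replicate 5. It was the highest array for 8 of 12 tested islet endocrine markers, against 19.6% of all tested genes. The median of these markers lay 0.34 above the standard mean in replicate 5, against 0.03 to 0.23 in cafeteria replicates 1 to 4 and −0.16 to 0.08 in standard replicates. Over the marker list, 10 of 12 genes were higher in cafeteria islets (median 0.20), against 48.7% of all tested genes. The beta cell factors Pdx1 (−0.21) and Nkx6-1 (−0.15) were lower. The summed signal of the list ran from 235985 to 300902 in cafeteria and from 202328 to 245797 in standard islets. The ratio of the 3′ to the 5′ GAPDH probeset, a sign of RNA integrity, was 1.12 in cafeteria replicate 5, against 0.964 to 1.01 in cafeteria replicates 1 to 4 and 1.00 to 1.26 in standard replicates. Bright genes as a class were also raised in replicate 5. Above the 95th percentile of mean signal, the median shift in it was 0.32 for 6 subunit genes and 0.16 for 509 other genes. Between the 90th and 95th percentile it was 0.28 for 11 subunit genes and 0.05 for 504 other genes, and between the 80th and 90th it was 0.19 for 12 subunit genes and −0.01 for 1018 other genes. After quantile normalization the subunit median in replicate 5 was 0.22. The part of endocrine share, signal level and RNA integrity in the result was not tested.

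Between the diet groups the GAPDH ratio itself differed, with a geometric mean of 1.01 in cafeteria and 1.16 in standard arrays (exact permutation p = 0.0238, two-sided, over 252 divisions of the arrays), and with this ratio as a covariate the subunit median was 0.124. Leaving out standard replicate 1, 3 or 4 gave p = 0.0635 in the same exact permutation test, and leaving out standard replicate 5 gave 0.0556. The actin ratio was 2.63 in cafeteria and 2.80 in standard arrays (exact permutation p = 0.405). Acinar markers were lower in cafeteria islets for 9 of 11 genes (median −0.44, summed signal 4389 to 22685 in cafeteria and 9784 to 23089 in standard islets). Immune markers were lower for 13 of 13 (median −0.48, summed signal 5014 to 19624 in cafeteria and 5351 to 18786 in standard islets), and no adjusted p of either list was under 0.05. Neither list was highest in cafeteria replicate 5 for any of its tested genes, but the acinar median lay 0.44 above the standard mean in it. In cafeteria replicates 1 to 4 the acinar median was −0.77, −0.58, −1.58 and 0.76, and in standard replicates 1 to 5 it was 0.36, −0.25, −0.36, −0.5 and 0.81. Without cafeteria replicate 5 all 11 acinar genes were lower (median −0.66). The part of acinar tissue in the shift of replicate 5 was not tested. Duct markers were above 0 for 5 of 6, stromal for 4 of 8, endothelial for 3 of 6 and erythroid for 2 of 3 genes, again with no adjusted p under 0.05 by limma. Of all tested genes 48.7% were above 0.

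The nuclear core subunits hold the flavin and the iron-sulphur clusters, and 6 of them are described here. By value 4 were higher and 2 lower, with a median of 0.094, and 0.052 without cafeteria replicate 5. Ndufs3, a core subunit at the base of the peripheral arm, had the lowest p of all complex I genes. Ndufs3 had signals of 1481, 1716, 1459, 1719 and 1942 in cafeteria replicates 1 to 5, against 1431, 1449, 1245, 1471 and 1412 in standard replicates 1 to 5. Cafeteria replicate 3 lay inside the standard range and the other 4 cafeteria arrays above it. The means were 1664 ± 199 in cafeteria and 1402 ± 90.1 in standard islets (SD, n = 5 each), a log2 difference of 0.24 (SE 0.095; limma unadjusted p = 0.0286, adjusted p = 0.444). Without cafeteria replicate 5 the difference was 0.18 (unadjusted p = 0.0638).

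Ndufs7 and Ndufs8 carry the clusters that hand electrons to ubiquinone. Ndufs7 had signals of 1738, 2259, 1793, 1981 and 2293 in cafeteria replicates, against 1624, 1667, 1826, 2032 and 1820 in standard replicates. Ndufs8 had 1028, 1334, 1012, 1029 and 1376 in cafeteria replicates, against 1167, 1119, 933, 1044 and 993 in standard replicates. In both genes cafeteria replicates 2 and 5 were the highest of all arrays and the other 3 lay among the standard arrays. The log2 differences were 0.16 (SE 0.104) for Ndufs7 and 0.13 (SE 0.114) for Ndufs8, with adjusted p of 0.582 and 0.697 by limma.

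The subunits that take electrons from NADH stood near or below 0. Ndufv1, which binds NADH and the flavin, averaged 2032 ± 178 in cafeteria and 2054 ± 107 in standard islets (SD, n = 5 each), a difference of −0.02 (SE 0.081). Ndufs1, which carries several clusters, had 2377, 2321, 2241, 2375 and 2837 in cafeteria replicates, against 2902, 2238, 2454, 2710 and 2221 in standard replicates. Its highest array was standard replicate 1, the groups overlapped throughout, and the difference was −0.04 (SE 0.101). Ndufv2, also a cluster protein, differed by 0.06 (SE 0.097), with its lowest signal in standard replicate 5, at 3506.

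**Figure D2:**
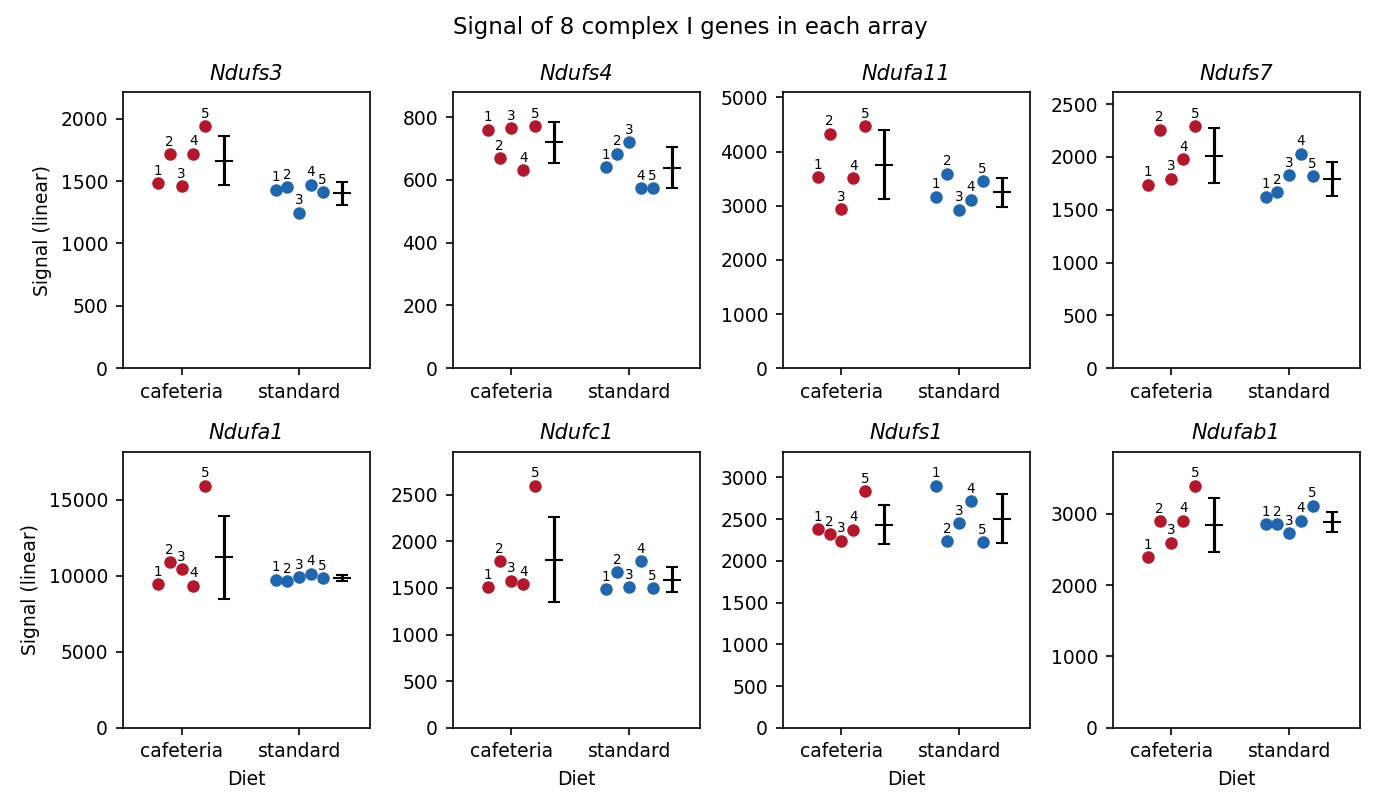
Linear signal (vertical axis, from 0) of 8 complex I genes in each array, with replicate numbers beside the points, cafeteria in red to the left and standard in blue to the right; the black mark is the mean and its bars 1 SD (n = 5). Ndufs3 has 4 of 5 cafeteria points above all standard points, Ndufa1 and Ndufc1 have a single high cafeteria point, replicate 5, and Ndufs1 and Ndufab1 overlap.

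The accessory subunits of the NADH-oxidising module were all above 0 by value, 7 of 7, with a median of 0.078, and 5 of 7 without cafeteria replicate 5 (median 0.027). Ndufs4 is an accessory subunit needed for a stable module, and its loss causes Leigh syndrome in humans and a similar disease in mice. Ndufs4 had signals of 759, 669, 765, 630 and 772 in cafeteria replicates, against 641, 683, 719, 573 and 574 in standard replicates. The cafeteria replicates 1, 3 and 5 lay above every standard array and the other 2 among them, for a difference of 0.17 (SE 0.095, adjusted p = 0.531 by limma), and 0.14 without replicate 5. Ndufa7 and Ndufv3 were measured by 2 tested probesets each that disagreed in sign. For Ndufa7 they gave 0.02 and −0.04, and for Ndufv3 0.08 and −0.11, each within 1 SE of 0.

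The accessory subunits of the proximal membrane arm showed the largest median shift among the roles, 0.151 with 7 of 7 above 0, and it shrank to 0.023 without cafeteria replicate 5, with 7 of 7 still above 0. In replicate 5 alone their median lay 0.46 above the standard mean. Ndufa11, a membrane subunit that also contacts complex III in supercomplexes, had 3522, 4330, 2943, 3509 and 4473 in cafeteria replicates, against 3168, 3590, 2926, 3110 and 3458 in standard replicates. Only cafeteria replicates 2 and 5 lay above every standard array, and the difference was 0.20 (SE 0.12, adjusted p = 0.565 by limma). Ndufc2 differed by 0.13 (SE 0.094).

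Ndufa1, an X-linked gene in humans whose small membrane subunit is needed for assembly, shows the single array plainly. Ndufa1 had 9458, 10901, 10466, 9361 and 15951 in cafeteria replicates, against 9762, 9668, 9915, 10150 and 9839 in standard replicates. The standard arrays lay close together, between 9668 and 10150, and cafeteria replicate 5 stood alone at 0.69 above their log2 mean. The difference was 0.16 (SE 0.134) with all arrays and 0.02 (SE 0.074) without replicate 5. Ndufc1, chosen after its values were seen, was shifted most in replicate 5, at 0.71. Ndufc1 had 1509, 1789, 1579, 1543 and 2599 in cafeteria replicates, against 1488, 1668, 1509, 1788 and 1495 in standard replicates.

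The distal membrane arm leaned little. Of its 12 accessory genes 8 were above 0, with a median of 0.021, and 4 were above 0 without cafeteria replicate 5 (median −0.021). Ndufb8 had the largest value of this arm, 0.18 (SE 0.155), with overlapping groups, from 257.3 to 424.5 in cafeteria and from 227.6 to 357.4 in standard islets. Ndufb4 differed by −0.04 (SE 0.089). Ndufab1, the mitochondrial acyl carrier protein, which also serves fatty acid synthesis in the organelle, had 2395, 2897, 2598, 2902 and 3397 in cafeteria replicates, against 2852, 2854, 2726, 2905 and 3114 in standard replicates. Its cafeteria arrays held both the lowest and the highest signals, and the difference was −0.04 (SE 0.097). The 2 accessory genes of the ubiquinone-reducing module differed by −0.01 (Ndufa5, SE 0.206, the most variable subunit gene) and 0.08 (Ndufa9, SE 0.077), both named after their values were seen.

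Ndufa4 and Ndufa4l2 keep complex I names, although the Ndufa4 protein is now assigned to complex IV and Ndufa4l2 is its hypoxia-induced relative. They differed by 0.06 (SE 0.117) and −0.07 (SE 0.119), and without cafeteria replicate 5 by −0.03 and −0.09. Leaving both out, 27 of 34 subunit genes were above 0, with a median of 0.063.

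**Figure D3:**
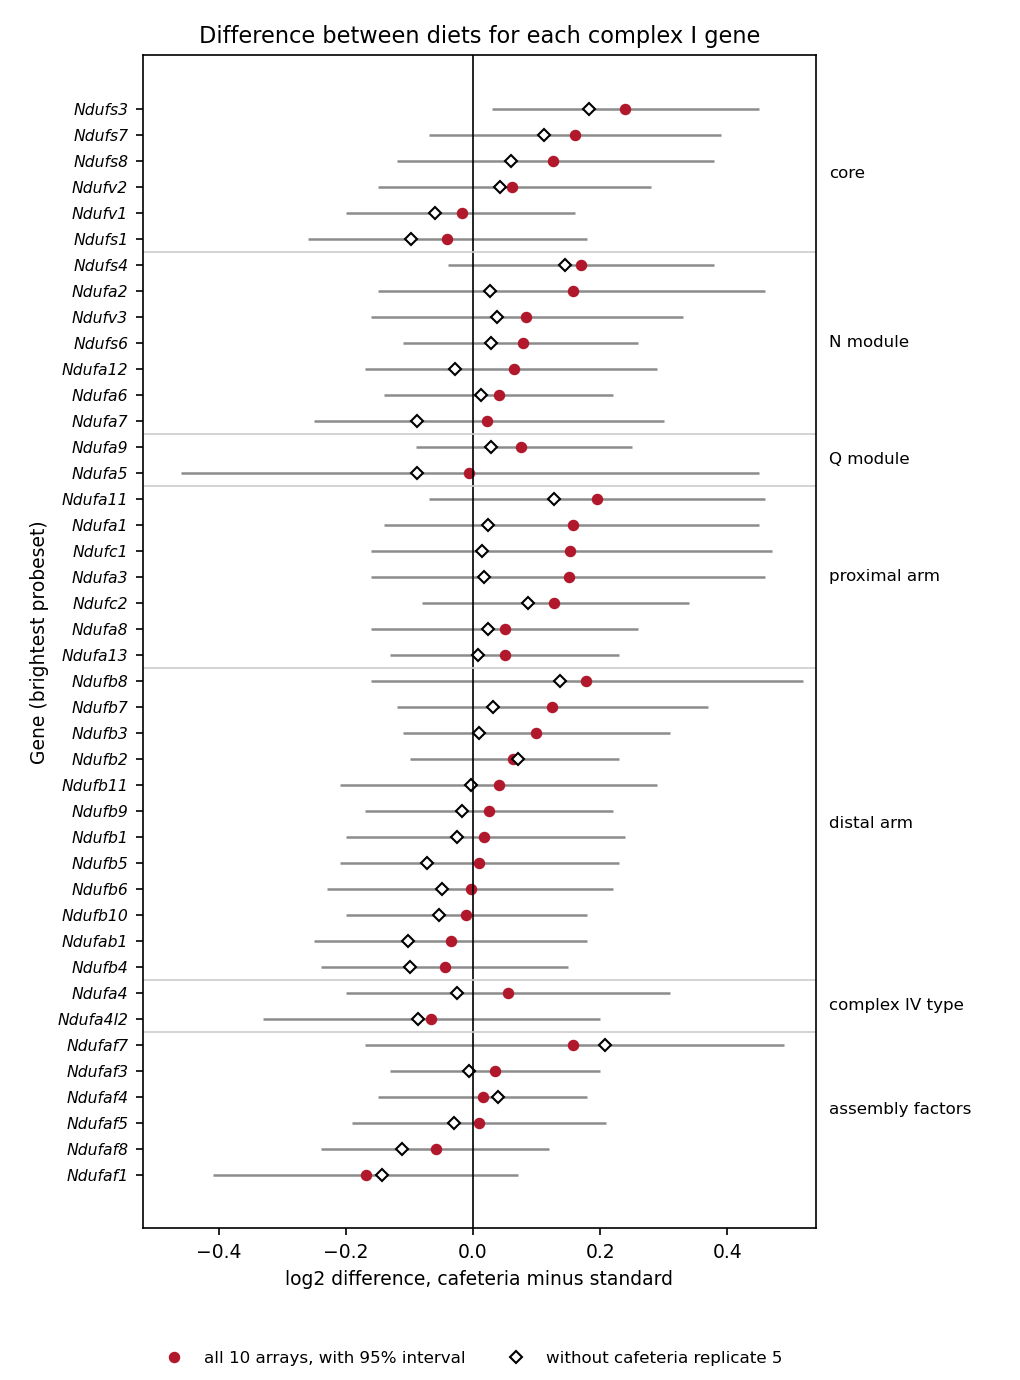
Log2 difference, cafeteria minus standard (horizontal axis), of each complex I gene grouped by role, from all 10 arrays (filled circles, bars 95% intervals) and without cafeteria replicate 5 (open diamonds). Ndufs3 is the only gene whose interval leaves out 0, and most diamonds lie to the left of their circles, with a subunit median of 0.014 against 0.063.

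The assembly factors lay near 0. Of 6 genes 4 were above 0, with a median of 0.012, and −0.019 without cafeteria replicate 5. Ndufaf1, which works with Ecsit and Acad9 in building the membrane arm, differed by −0.17 (SE 0.111, adjusted p = 0.59 by limma). Ndufaf1 had signals of 121.9, 117.6, 111.5, 148.0 and 112.3 in cafeteria replicates, against 157.5, 124.7, 137.7, 162.6 and 115.2 in standard replicates, with overlap. Ndufaf7, known in human cells as an arginine methyltransferase, gave 0.16 (SE 0.149) and −0.10 (SE 0.122) with its 2 probesets. Ndufaf8, the partner of Ndufaf5, differed by −0.06 (SE 0.081), and its highest signal, 924, was in cafeteria replicate 5. Among 9 tested assembly genes without an Nduf symbol 6 were above 0 (median 0.043, against 48.7% of all tested genes), with 1 at an unadjusted p under 0.05 (against 5.02% higher): Timmdc1, at 0.22 (SE 0.093, adjusted p = 0.46 by limma). Foxred1, next by p, was at 0.24 (SE 0.142).

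The spread between rats was of the same order as the differences. The median SD of a subunit gene on the log2 scale was 0.184 over the 5 cafeteria arrays, 0.111 over cafeteria replicates 1 to 4, and 0.117 over the 5 standard arrays. The same medians over all tested genes were 0.170, 0.145 and 0.157. Thus the subunit genes varied less than the typical gene in the standard arrays and in cafeteria replicates 1 to 4. They varied more once replicate 5 was counted, and these differences were not tested. Most subunit genes are bright, and all tested genes are not matched to them in signal level. No comparison of SDs matched on signal was made, so the part of signal level was not tested. The lowest subunit signal fell in standard replicate 3 for 10 genes and in cafeteria replicates 3 and 1 for 7 and 6 genes.

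Complexes III and IV and ATP synthase were also highest in cafeteria replicate 5, by their median, and complex II in replicate 4 (0.21). In cafeteria replicate 5 the median relative to the standard mean was 0.17 for 4 genes of complex II (succinate dehydrogenase), 0.38 for 8 of complex III, 0.40 for 9 of complex IV and 0.37 for 13 of ATP synthase, against 0.28 for the complex I subunits and 0 for all tested genes. Most genes of these complexes are bright, and bright genes were raised in that array too. Above the 95th percentile of mean signal the median was 0.16 for 509 genes other than complex I subunits. No comparison matched on signal was made for complexes II to V. Over all arrays the numbers above 0 were 4 of 4, 7 of 8, 8 of 9 and 12 of 13, with medians of 0.13, 0.106, 0.098 and 0.094. Without replicate 5 the medians were 0.098, 0.029, 0.011 and 0.037. No gene of these lists had an adjusted p under 0.05 by limma, and 3 of the 34 had an unadjusted p under 0.05, all higher (against 5.02% of all tested genes higher and 5.26% lower): Sdhc (0.17, SE 0.076) and the ATP synthase genes Atp5me (0.42, SE 0.143) and Atp5po (0.27, SE 0.105).

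**Figure D4:**
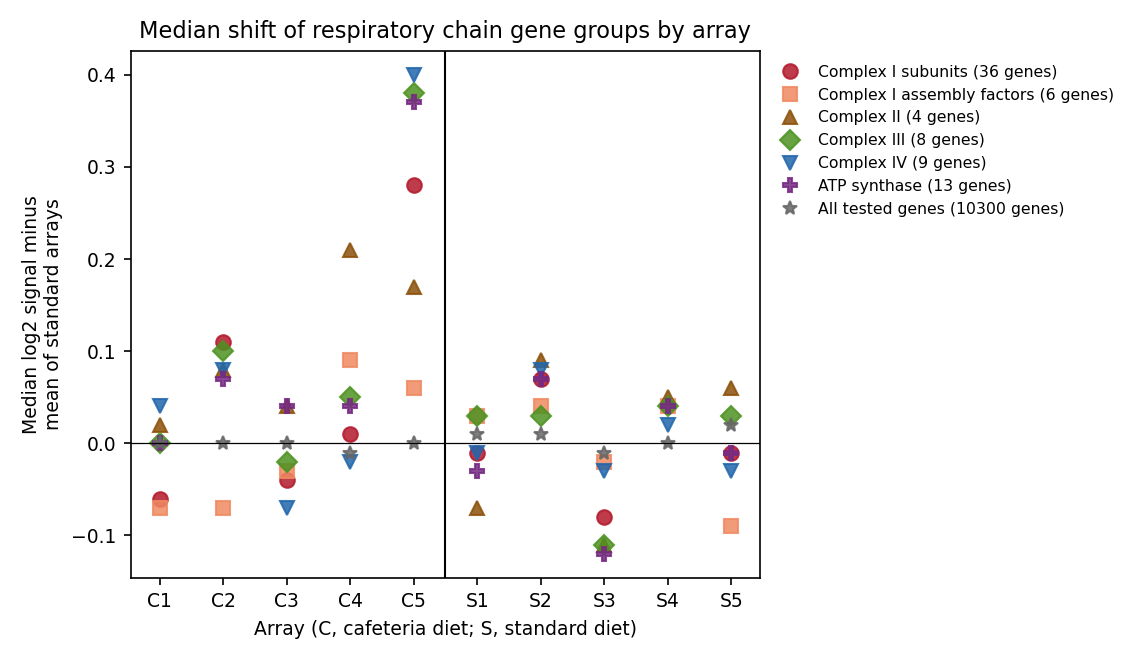
Median log2 signal of each gene group in each array (C, cafeteria; S, standard), minus the mean of the 5 standard arrays. In C5 the subunits of complex I, III, IV and ATP synthase lie at 0.28 to 0.40 and complex II at 0.17, while all tested genes stay near 0 in all arrays and the complex I assembly factors lie at 0.06. All tested genes are not matched to these groups in signal level.

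The regulators of these genes were read alongside. Of 12 regulators, 6 were above 0 and 6 below, with a median of 0.036 and no adjusted p under 0.05. Esrra, the estrogen-related receptor alpha that drives respiratory genes together with PGC-1 coactivators, had 169.4, 224.1, 159.9, 161.4 and 196.7 in cafeteria replicates, against 87.3, 109.6, 69.5, 131.0 and 195.5 in standard replicates. All but standard replicate 5 were below every cafeteria array, for a difference of 0.63 (SE 0.215; limma unadjusted p = 0.0137, adjusted p = 0.412). Yy1, a zinc finger factor that binds many promoters of mitochondrial genes, had 1521, 1587, 1522, 1546 and 986 in cafeteria replicates, against 1900, 1692, 1778, 1793 and 1924 in standard replicates. The groups did not overlap, as in 1.72% of all tested genes with cafeteria lower, cafeteria replicate 5 was lowest, and the difference was −0.36 (SE 0.128; limma unadjusted p = 0.0165, adjusted p = 0.421), or −0.23 without that replicate. The other 3 Yy1 probesets were too dim to pass the filter. Ppargc1a, a PGC-1 coactivator gene named after its values were seen, was the only regulator highest in cafeteria replicate 5. Ppargc1a lay 0.64 above the standard mean there and 0.09 above it in the other cafeteria arrays, for a difference of 0.20 (SE 0.136). The median of the 12 regulators in cafeteria replicate 5 was −0.13.

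Promoter sequences were read for the family because its genes moved together in cafeteria replicate 5, and 40 of 42 genes had an entry in RefSeq (GRCr8), 34 of them subunit genes. Each is 300 bases long, 250 before the annotated start site and 50 from it on. On both strands, 4 motifs were searched, and no match overlapped one of another motif. The YY1 letters AAGATGGCG occurred in 7 of 34 subunit promoters (20.6%), against 1.93% of all 27457 promoters and 4.08% of those of tested genes. The NRF1 letters GCGCANGCG occurred in 8 (23.5%), against 6.26% and 13.9%. The ETS letters CCGGAAG occurred in 7 (20.6%), against 9.22% and 18.5%, and CCAAT in 11 (32.4%), against 37.7% and 37.8%.

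The YY1 letters lay close behind the start site. In all 7 subunit promoters that hold them (Ndufa2, Ndufa6, Ndufa9, Ndufb8, Ndufs4, Ndufs6 and Ndufs7) they ran along the sense strand and began 4 to 26 bases after the start site. The letters contain ATG, which is also the start codon. Whether the matches lie at the start of translation, which would fix their strand and place, was not checked. A match on that strand within 30 bases, a window set after these positions were seen, was present in 1.95% of promoters of tested genes. The 7 genes differed by 0.04 to 0.18, with a median of 0.158, and 0.029 without cafeteria replicate 5, while 19 of the other 27 were above 0, with a median of 0.055. The 11 genes with CCAAT were likewise all above 0 (median 0.084), against 15 of 23 without it (0.055). The medians with and without the ETS letters were 0.125 and 0.063, and with and without the NRF1 letters 0.053 and 0.069. These groupings were also made after the values were seen, overlap in their genes and were not tested. Nrf1 and Gabpa, the factors of the NRF1 and ETS letters, differed by −0.19 (SE 0.089) and −0.16 (SE 0.091), with adjusted p of 0.48 and 0.534 by limma.

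The promoters of the 4 subunit genes with the lowest p and of Ndufa1 are shown 5′ to 3′ on the strand of the gene, with matches in capitals. They are Ndufs3 (chr3:97339605-97339904, minus strand, CCAAT), Ndufs4 (chr2:47794865-47795164, minus strand, YY1), Ndufa11 (chr9:1637364-1637663, plus strand, 4 overlapping NRF1 matches over both strands), Ndufs7 (chr7:10110449-10110748, minus strand, YY1) and Ndufa1 (chrX:121293506-121293805, minus strand, 2 ETS matches). Ndufs4 and Ndufs7 have the YY1 letters at the same place, 4 bases after the start site, and a match here is a description of letters and not of binding.
Ndufs3: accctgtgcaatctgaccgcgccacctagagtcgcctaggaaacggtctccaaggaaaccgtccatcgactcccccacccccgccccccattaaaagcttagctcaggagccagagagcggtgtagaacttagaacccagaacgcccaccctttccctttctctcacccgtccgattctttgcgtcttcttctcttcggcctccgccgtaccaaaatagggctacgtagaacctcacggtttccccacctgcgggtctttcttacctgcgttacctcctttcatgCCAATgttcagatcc
Ndufs4: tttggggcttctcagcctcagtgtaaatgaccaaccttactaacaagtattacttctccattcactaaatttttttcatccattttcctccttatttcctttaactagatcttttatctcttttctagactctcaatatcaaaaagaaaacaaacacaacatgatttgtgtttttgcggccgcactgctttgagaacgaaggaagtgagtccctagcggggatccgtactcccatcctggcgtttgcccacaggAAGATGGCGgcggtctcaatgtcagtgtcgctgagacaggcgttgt
Ndufa11: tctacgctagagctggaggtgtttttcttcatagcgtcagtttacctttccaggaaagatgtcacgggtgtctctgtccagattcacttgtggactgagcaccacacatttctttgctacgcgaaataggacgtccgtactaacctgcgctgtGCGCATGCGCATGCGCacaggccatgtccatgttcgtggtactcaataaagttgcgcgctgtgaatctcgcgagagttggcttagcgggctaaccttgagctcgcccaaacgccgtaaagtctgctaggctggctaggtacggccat
Ndufs7: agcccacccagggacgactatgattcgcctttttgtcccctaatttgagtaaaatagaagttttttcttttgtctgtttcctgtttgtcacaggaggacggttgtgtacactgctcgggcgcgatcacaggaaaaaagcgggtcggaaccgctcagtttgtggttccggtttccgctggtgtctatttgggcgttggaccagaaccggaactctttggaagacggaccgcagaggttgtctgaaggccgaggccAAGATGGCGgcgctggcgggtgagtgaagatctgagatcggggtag
Ndufa1: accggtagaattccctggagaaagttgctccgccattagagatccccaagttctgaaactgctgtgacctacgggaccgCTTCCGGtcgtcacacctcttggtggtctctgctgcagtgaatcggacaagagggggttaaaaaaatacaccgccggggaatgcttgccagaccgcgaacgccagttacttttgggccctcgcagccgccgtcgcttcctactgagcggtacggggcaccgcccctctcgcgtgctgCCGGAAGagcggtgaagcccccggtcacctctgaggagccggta

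Some members carry limits of the probes. By a match of symbols in RefSeq, 20 of the 42 genes have a pseudogene or a like-named gene, whose transcripts their probes might also read. Among those described these are Ndufs4, Ndufs6, Ndufa1, Ndufa2, Ndufa3, Ndufa4, Ndufa5, Ndufa7, Ndufa12, Ndufab1, Ndufb3, Ndufb4, Ndufb11, Ndufv2, Ndufv3 and Ndufaf7. Copies under other symbols were not searched. The 18 subunit genes with none found by symbol, Ndufa4l2 among them, had 14 above 0 and a median of 0.069. Probesets with several symbols were left out of the family: that of Ndufs5 and a pseudogene stood at 0.15 (SE 0.085), and that of Ndufa10 and Ndufa10l1 at −0.24 (SE 0.119). The mitochondrially encoded subunits have no probeset under their symbols here and were not analysed.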

How the data were processed

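Total islet RNA of 5 cafeteria and 5 standard diet rats was labelled with biotin and hybridised to 1 array each, per the labels' protocols. The deposited values are linear signal intensities made with MAS5, per the submitters' processing notes; the version of MAS5 and the settings are not given in the sources used here, and detection calls were not used here. Gene symbols came from the platform annotation. The number of arrays, 5 per diet, limits the precision.

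Of 31042 probesets that are not controls, those with a mean log2(signal + 14.15) above the 40th percentile, 18625, were fitted with limma 3.58.1 (lmFit and eBayes) in R 4.3.3, diet as the only term, and p-values were adjusted by Benjamini-Hochberg with a threshold of 0.05. The 10th percentile of the signals served as pseudocount. Intervals are 95% intervals of the same fit. The 3′ to 5′ ratios were compared by an exact permutation test. The fit was tested on simulated data with known changes, all larger than the differences of the complex I genes seen here. That test therefore cannot show whether changes of their size would be found.

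Named genes are the nuclear core subunits, the 5 subunit genes of lowest p in each direction, 3 assembly factors of lowest p, the 2 brightest and 2 dimmest subunit genes, Ndufa4, Ndufa4l2, Ndufab1, genes whose probesets disagree in sign, and up to 2 of lowest p in each other list. Outside this rule, Nrf1 and Gabpa were named for their motifs and Ppargc1a for its signal in cafeteria replicate 5. The family, these lists and this rule were chosen with earlier results of these data known. Alternatives changed the pseudocount, filter, scaling, variance model, covariates, probeset rule, members and arrays used. Same-numbered replicates were not treated as paired. No scan date or batch was given in the sources used here.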

Additional observations from a re-analysis of the deposited data

Results flagged for a closer look

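In the 42 genes and each diet group, the lowest and highest array were set against the other 4 by Dixon's criterion, together with the array medians of subunits and assembly factors and the GAPDH ratio, 90 sets in all. It marked 10, where about 1 set in 20, or 4.5, is marked by chance. In 6 of the 10 the array that stood apart was cafeteria replicate 5, always as the highest. Its log2 signals were 13.96 for Ndufa1 (the other cafeteria arrays 13.19 to 13.41), 12.18 for Ndufa12 (11.63 to 11.78), 11.97 for Ndufa3 (11.23 to 11.41), 12.60 for Ndufb3 (12.14 to 12.18), 11.48 for Ndufs1 (11.14 to 11.22) and 9.87 for Ndufaf8 (9.58 to 9.62). Ndufaf8 and Ndufs1 were the only ones of these 6 whose difference between the diets was below 0 with all arrays.

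The other 4 were low standard arrays. Standard replicate 5 was lowest for Ndufaf7 at 7.70 (the others 8.27 to 8.49) and for Ndufv2 at 11.78 (12.15 to 12.19). Standard replicate 3 was lowest for Ndufb11 at 11.93 (12.23 to 12.29) and for Ndufs3 at 10.30 (10.48 to 10.54). Without standard replicate 3 the difference of Ndufs3 was 0.198, and without standard replicate 5 that of Ndufv2 was −0.01.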

How the results depend on the processing

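Across 23 other settings 0 complex I genes passed the adjusted threshold, and the lowest adjusted p was 0.295, with the filter at the 70th percentile (34 subunit genes tested). The subunit median stayed above 0, from 0.014 to 0.124, highest with the GAPDH ratio as a covariate, at 0.087 with the acinar index as a covariate (34 of 36 above 0), 0.059 with quantile normalization (31 of 36), 0.044 with array weights (25 of 36) and 0.025 with median centring (24 of 36). Leaving out single arrays gave 0.014 (without cafeteria replicate 5) to 0.10 (without cafeteria replicate 1), with 21 to 33 subunit genes above 0, and 0.039 without cafeteria replicate 2. The 18 subunit genes with no RefSeq copy found by symbol had 14 above 0, fewer because fewer genes were counted.

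The assembly factor median changed sign with median centring (−0.025) and with the GAPDH covariate (−0.007), and ranged from −0.019 to 0.032 when single arrays were left out. The GAPDH ratio difference of −0.205 (log2) ranged from −0.258 to −0.174 without single arrays. With the replicate block it was −0.205 again, with an exact permutation p of 0.0625, the smallest that 5 pairs allow. No label says that a number marks a shared batch, and the deviations of same-numbered arrays correlated at 0.0, 0.3, 0.25, 0.0 and 0.14, so that not all pairs deviated together. Still, 5 of 10 arrays correlated best with their own number among the 5 arrays of the other diet, with each pair counted from both sides. No chance level was computed for this count, so it cannot tell whether the arrays were paired, and the design states no pairing. The block changed no other call: the subunit median was 0.063, 28 genes were above 0 and 0 complex I genes passed.

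Of 456 values for 20 named genes under these settings, 434 kept their direction and side of the threshold, and 22 values of 9 genes, all within 1 SE of 0 in the full fit, changed sign. With the GAPDH covariate these were Ndufs1 (0.177), Ndufb4 (0.006), Ndufab1 (0.028) and Ndufv3 (−0.011). With the acinar index they were Ndufv1 (0.010), Ndufa4l2 (0.004) and Ndufab1 (0.022). With the mean of probesets they were Ndufa7 (−0.006) and Ndufv3 (−0.012). Ndufv1 turned to 0.001 with quantile normalization, and Ndufa7 to −0.015 with median centring and −0.025 with array weights. Without single arrays the values ranged from −0.06 to 0.021 for Ndufv1, −0.014 to 0.108 for Ndufv2, −0.097 to 0.014 for Ndufs1, −0.131 to 0.003 for Ndufa4l2, −0.102 to 0.023 for Ndufab1, −0.026 to 0.118 for Ndufa4 and −0.089 to 0.078 for Ndufa7. The cause of these changes was not tested. MAS5 intensities carry no depth, and with 5 rats a diet the SEs of 0.076 to 0.206 set the limit of what could be told apart.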
